A study of Homo sapiens with 12 samples.

Results

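The aminoacyl-tRNA synthetases are the enzymes that attach amino acids to their tRNAs, and their transcripts are described here in 2 human skin cancer cell lines with and without everolimus. The genes were chosen by name from a list of 35, of which 19 encode cytosolic enzymes and 16 mitochondrial ones, with the condition that a probe set of the array carries the gene's name. That condition left 17 genes, all on the cytosolic side, among 14884 named genes, and for each the probe set with the highest mean was used. The cytosolic phenylalanine enzyme's subunits FARSA and FARSB and the 16 mitochondrial enzymes had 0 probe sets named here and are not analysed here, so cytosolic and mitochondrial synthetases could not be compared.

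The study compared the lines HSC-1 and A431, both from squamous cell carcinoma of the skin. There were 3 arrays in each of 4 groups: HSC-1 with everolimus, HSC-1 with DMSO, A431 with everolimus and A431 with DMSO. Everolimus is a derivative of rapamycin and blocks mTOR complex 1. It was given at 100 nM for 72 h, and the controls had DMSO for the same time. Each model is 1 established line. Separate cultures behind the 3 arrays are not stated in the labels, so the spread that the p-values rest on may be technical, and the serum level of each line is not stated either.

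Each synthetase activity joins 1 amino acid to the tRNAs that read its codons, and the loaded tRNAs feed the ribosome. In animal cells several of them (among them those for isoleucine, leucine, methionine, glutamine, arginine and lysine) sit in a multi-synthetase complex held together by scaffold proteins such as AIMP1. When amino acids run short, uncharged tRNA activates the kinase GCN2, translation of the transcription factor ATF4 rises, and ATF4 induces amino acid synthesis enzymes, transporters and many cytosolic synthetases. mTOR complex 1 is also known to promote ATF4 translation, apart from that stress route.

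A sequence feature bears on this background, since ATF4 and C/EBP proteins bind a composite element. The letters TGATGNAA, or TTNCATCA on the other strand, were looked for on both strands of promoter windows of RefSeq (GRCh38.p14) that run from 250 bases before to 50 bases after a gene's start. Windows were given for 14 of the 17 genes, 19 windows in all, and 3 genes (LARS1, VARS1 and YARS1) were not matched. The letters were in 7 of these 14 genes, while 3.62% of all 35116 windows and 2.52% of the 8089 tested genes with a window held them. The 7 genes are printed on the gene's own strand with the element in capitals and 10 bases on each side. The printed lines show where the matches lie. The search fixed every letter of the element but the N, so the matches could differ only there and in strand.
MARS1 (chr12:57488054-57488081, plus strand): ccggttccggTTGCATCAgcgagggatt
GARS1 (chr7:30594835-30594862, plus strand): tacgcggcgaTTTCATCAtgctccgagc
IARS1 (chr9:92293693-92293720, minus strand): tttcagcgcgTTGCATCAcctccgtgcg
NARS1 (chr18:57621805-57621832, minus strand): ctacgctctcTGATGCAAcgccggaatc
TARS1 (chr5:33440957-33440984, plus strand): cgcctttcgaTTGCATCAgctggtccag
AARS1 (chr16:70289676-70289703, minus strand): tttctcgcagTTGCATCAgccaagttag
CARS1 (chr11:3057408-3057435, minus strand): ggggcggcggTTGCATCAgattctagga
Of these, 5 read TTGCATCA, NARS1 has the same letters on the opposite strand (TGATGCAA) and GARS1 reads TTTCATCA. Counting the first transcribed base of the window as 1, the element began at -187 in AARS1, at -33 in GARS1, at -13 in IARS1, at -4 in MARS1, at -2 in CARS1, at 3 in TARS1 and at 15 in NARS1, so 6 of the 7 lay between -33 and 15. CARS1, GARS1, TARS1, SARS1 and WARS1 have 2 windows each, and for the first 3 of these the element was in 1 window. No match was found for EPRS1, HARS1, KARS1, QARS1, RARS1, SARS1 and WARS1 in their windows. All 7 matches fell among the 10 genes with a window that were listed, from general knowledge, as described ATF4 targets, and 0 among the 4 not listed. Descriptions of that kind may rest on the same element, so this split is no test of the list or of the search. A match is a description of letters and not of binding.

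The 250 bases before the start, and for MARS1 the 4 after it that complete the element, are shown for 3 genes. They are the methionine and isoleucine enzymes with an element beside the start and the glutamine enzyme QARS1 with none. The 3 were picked because their transcripts went apart in HSC-1 with everolimus, and other genes did not follow that split. HARS1, WARS1 and EPRS1 fell there with no element found in their windows, and CARS1 with the element did not pass.
MARS1 (chr12:57487818-57488071, plus strand): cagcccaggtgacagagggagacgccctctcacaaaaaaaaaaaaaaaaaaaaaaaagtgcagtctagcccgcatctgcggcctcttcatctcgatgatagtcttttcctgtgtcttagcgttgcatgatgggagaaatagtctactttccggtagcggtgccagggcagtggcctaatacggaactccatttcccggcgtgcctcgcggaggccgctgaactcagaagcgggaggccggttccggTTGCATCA
IARS1 (chr9:92293698-92293947, minus strand): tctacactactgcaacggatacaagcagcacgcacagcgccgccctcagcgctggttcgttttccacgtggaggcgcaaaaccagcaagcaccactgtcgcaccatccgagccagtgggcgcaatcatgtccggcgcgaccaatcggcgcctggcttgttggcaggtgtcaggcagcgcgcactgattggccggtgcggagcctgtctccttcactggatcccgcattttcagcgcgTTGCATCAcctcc
QARS1 (chr3:49104758-49105007, minus strand): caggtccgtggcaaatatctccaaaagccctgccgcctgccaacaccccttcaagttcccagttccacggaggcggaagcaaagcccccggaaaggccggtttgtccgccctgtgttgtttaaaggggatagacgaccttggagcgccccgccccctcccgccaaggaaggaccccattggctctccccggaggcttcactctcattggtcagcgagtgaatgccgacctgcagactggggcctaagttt

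Levels are log2 values of the authors' normalization, and each is comparable between arrays for 1 probe set but not between genes. In bulk samples such as these, fewer cells of a kind and less RNA per cell cannot be told apart. Over all probe sets, correlations between arrays ran from 0.989 to 0.992 within a group, from 0.987 to 0.991 between treatments of a line and from 0.955 to 0.962 between lines. All 7 named keratinocyte markers lay above the array median on all 12 arrays, with KRT14 between 9.64 and 10.12 and KRT5 between 9.25 and 9.62, while the melanocyte genes MLANA, TYR and TYRP1, the endothelial genes PECAM1, VWF and KDR, the fibroblast gene DCN and the leukocyte gene LYZ were above it on 0 arrays. Some genes of those lists were above it on all 12 arrays (MITF and SOX10 of the melanocyte list, THY1 of the fibroblast list and CD68 of the leukocyte list). The fibroblast gene LUM was above it on 6 arrays, the leukocyte gene CD14 on 5 and the melanocyte gene PMEL on 1. Of the keratinocyte list, 7 of 13 genes had a named probe set. All 17 synthetase genes lay above the array median on all 12 arrays and were tested among 10613 genes.

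In HSC-1 most synthetase transcripts were lower with everolimus, by at most 1.32-fold, and that of QARS1 was higher. Of the 17, 11 fell, 1 rose and 5 did not pass at an adjusted p of 0.05 (limma over all tested genes, Benjamini-Hochberg). Of all tested genes 18.6% passed in this comparison, 11.3% as lower and 7.34% as higher. The median log2 difference of the 17 was -0.19 and that of all tested genes -0.02. Of the 17 differences 15 were negative, against 55.1% of all tested genes. The 3 arrays with everolimus lay wholly below the 3 with DMSO for 13 of the 17 and wholly above for 1, against 19.6% and 13.7% of all tested genes.

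HARS1, the histidine enzyme, had levels of 5.91, 5.93 and 6.11 in HSC-1 with everolimus, against 6.43, 6.37 and 6.34 in HSC-1 with DMSO. It fell by 0.40 ± 0.09 on the log2 scale (SE), which is 1.32-fold (limma adjusted p = 0.00402), the largest fall among the 17. VARS1, the valine enzyme, had 6.55, 6.43 and 6.59 with everolimus, against 6.98, 6.91 and 6.85 with DMSO, a log2 difference of -0.39 ± 0.07 (adjusted p = 0.00107 by limma). Its second probe set differed by -0.28 ± 0.07, in the same direction. In both genes the highest everolimus array was below the lowest DMSO array by more than 0.2.

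MARS1, which loads methionine for both initiator and elongator tRNAs, had 7.77, 7.62 and 7.67 in HSC-1 with everolimus, against 8.04, 8.0 and 8.01 with DMSO. It fell by 0.33 ± 0.05, or 1.26-fold (limma adjusted p = 0.000227). WARS1, the tryptophan enzyme and an interferon-inducible gene, had 5.75, 5.68 and 5.70 with everolimus, against 6.05, 5.99 and 6.06 with DMSO. Its log2 difference was -0.32 ± 0.06 (limma adjusted p = 0.000922), and with the mean of its probe sets the adjusted p was 0.0501. Its second probe set lay above the array median on 6 of 12 arrays. GARS1, the glycine enzyme, whose gene makes both the cytosolic and the mitochondrial form, had 8.97, 8.74 and 8.78 with everolimus, against 9.03, 9.20 and 9.10 with DMSO, a log2 difference of -0.28 ± 0.06 (limma adjusted p = 0.00268). For MARS1, WARS1 and GARS1 the groups did not overlap, and the gap was narrowest for GARS1.

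QARS1, the glutamine enzyme and a member of the multi-synthetase complex, went the other way. It had 8.36, 8.22 and 8.42 in HSC-1 with everolimus, against 8.07, 8.02 and 8.06 with DMSO, and rose by 0.28 ± 0.05 or 1.22-fold (limma adjusted p = 0.000659). All 3 everolimus arrays were above all 3 DMSO arrays. The other falls were smaller. IARS1, the isoleucine enzyme, had 9.96, 9.99 and 9.97 with everolimus, against 10.19, 10.21 and 10.22 with DMSO, and fell by 0.23 ± 0.04 (limma adjusted p = 0.000318). TARS1, the threonine enzyme, had 10.61, 10.57 and 10.57 with everolimus, against 10.82, 10.76 and 10.84 with DMSO, a log2 difference of -0.22 ± 0.05 (limma adjusted p = 0.00194). The calls of HARS1, VARS1, MARS1, GARS1, QARS1, IARS1 and TARS1 were kept under all 22 alternatives.

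The calls of NARS1, EPRS1, AARS1 and YARS1 depended on which arrays were kept, and 0 of them changed sign. NARS1, the asparagine enzyme, fell by 0.23 ± 0.07 (limma adjusted p = 0.0196), with 8.81, 8.86 and 8.60 in HSC-1 with everolimus, against 9.03, 8.97 and 8.96 with DMSO. Without everolimus replicate 3 its log2 difference was -0.15 (adjusted p by limma 0.098), and without DMSO replicate 1 the adjusted p was 0.0799, in a range from 0.00456. EPRS1, which loads glutamate and proline, fell by 0.17 ± 0.04 (limma adjusted p = 0.00864), with 9.63, 9.64 and 9.55 with everolimus, against 9.71, 9.78 and 9.84 with DMSO, and its adjusted p ranged from 0.00703 to 0.0661 over the alternatives, with 0.0559 without DMSO replicate 3. AARS1, the alanine enzyme, fell by 0.14 ± 0.04 (limma adjusted p = 0.0263), with 9.05, 9.04 and 9.08 with everolimus, against 9.21, 9.25 and 9.12 with DMSO. Its adjusted p was 0.09 without DMSO replicate 1, 0.136 without DMSO replicate 2, 0.0655 without everolimus replicate 1 and 0.0833 without everolimus replicate 2, in a range from 0.00822. YARS1, the tyrosine enzyme, fell by 0.19 ± 0.07 with a limma adjusted p of 0.0485, with 7.17, 7.25 and 7.22 with everolimus, against 7.53, 7.36 and 7.33 with DMSO. Its call was lost under 15 of the 22 alternatives, among them leaving out any 1 array except HSC-1 DMSO replicate 3 and A431 DMSO replicate 3. Its adjusted p lay between 0.0255 and 0.244, the highest without HSC-1 DMSO replicate 1.

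The remaining 5 did not pass in HSC-1. RARS1, the arginine enzyme, had a log2 difference of -0.13 ± 0.05 (limma adjusted p = 0.053), with 9.14, 9.17 and 9.01 with everolimus, against 9.20, 9.26 and 9.27 with DMSO. SARS1, the serine enzyme, had -0.10 ± 0.04, and both it and RARS1 had groups that did not overlap. KARS1, the lysine enzyme of both cytosol and mitochondria, had -0.10 ± 0.05, and CARS1, the cysteine enzyme, -0.08 ± 0.07. LARS1, the leucine enzyme, which also acts as a leucine sensor for mTOR complex 1, had a log2 difference of 0.03 ± 0.05 with a 95% interval from -0.07 to 0.13. Averaged over the 17 genes, the deviation from the DMSO mean of HSC-1 was -0.15, -0.18 and -0.20 on the 3 everolimus arrays. It was 0.0050, -0.0033 and -0.0017 on the 3 DMSO arrays. The everolimus arrays had 14, 15 and 16 of the 17 genes below that mean, and the DMSO arrays 7, 10 and 8.

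**Figure D1:**
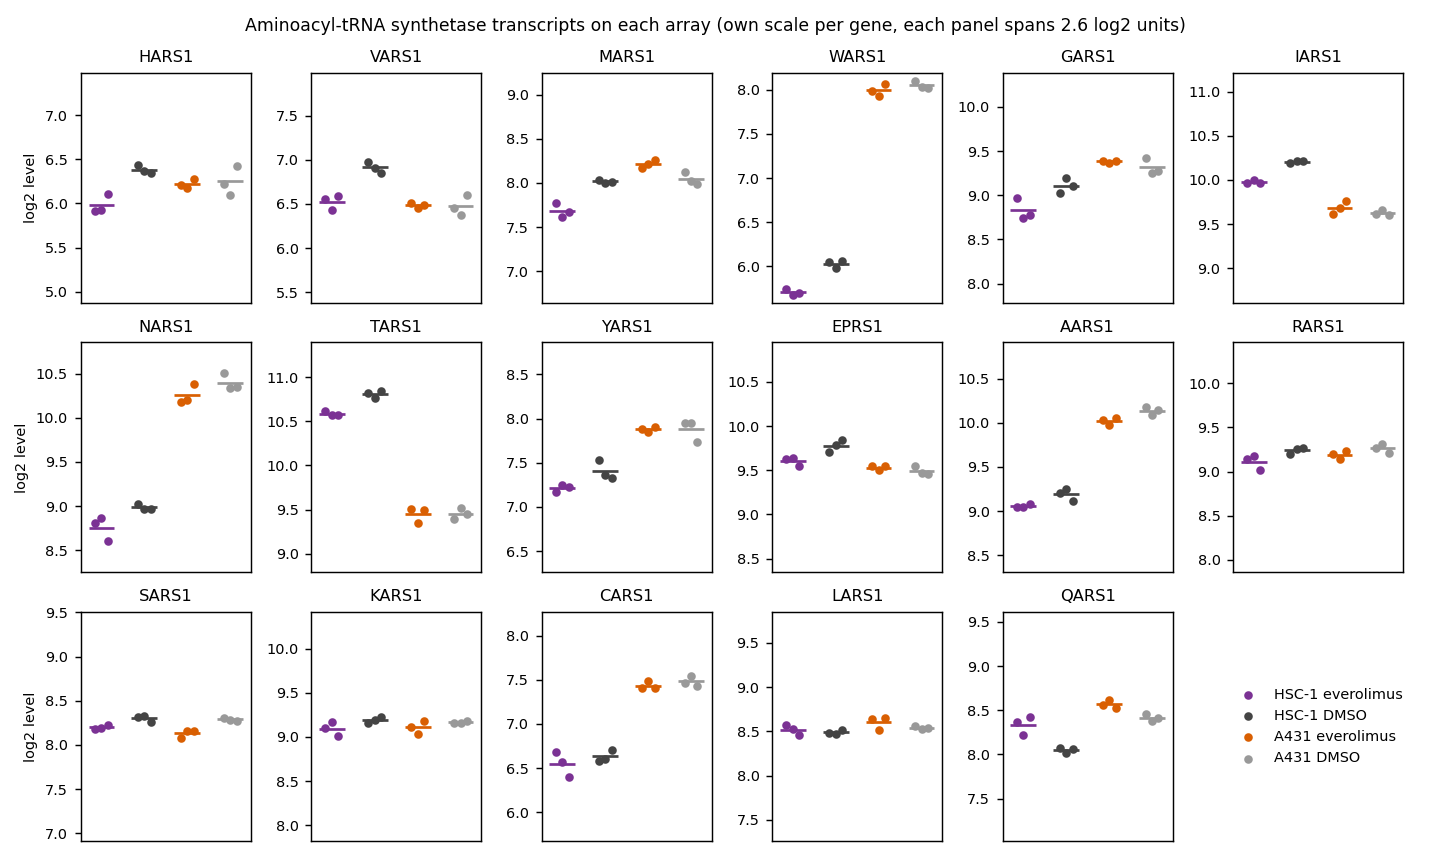
Log2 level of each of the 17 synthetase genes (vertical axis, own scale per gene) on every array; points are arrays, horizontal bars the means of 3 arrays, and colours the groups HSC-1 with everolimus, HSC-1 with DMSO, A431 with everolimus and A431 with DMSO from left to right. Panels are ordered from HARS1, with a log2 difference of -0.40 in HSC-1, to QARS1, with 0.28; WARS1, NARS1 and TARS1 show the widest gaps between the lines.

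In A431 most synthetase transcripts did not differ detectably between everolimus and DMSO. Of the 17, 1 fell, 0 rose and 16 did not pass (limma), while 6.73% of all tested genes passed, 4.33% as lower and 2.39% as higher. At an unadjusted p under 0.05 there were 3 lower and 2 higher, against 11.1% and 8.08% of all tested genes. The median log2 difference was -0.0049, the same within 0.01 as the -0.0038 of all tested genes. Of the 17 differences 9 were negative, against 51% of all tested genes.

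SARS1 was the 1 that fell. It had 8.08, 8.15 and 8.16 in A431 with everolimus, against 8.30, 8.29 and 8.27 with DMSO, so it fell by 0.16 ± 0.04, or 1.11-fold (limma adjusted p = 0.04). The groups did not overlap, but the call was lost under 12 of 22 alternatives, with adjusted p-values of 0.166 and 0.0738 when A431 everolimus replicate 1 or 2 was left out, and of 0.131, 0.108 and 0.0769 when A431 DMSO replicate 1, 2 or 3 was left out. It was also lost without HSC-1 DMSO replicate 1 (0.056), HSC-1 DMSO replicate 2 (0.0536) and HSC-1 everolimus replicate 2 (0.0525). The lowest adjusted p over the alternatives was 0.0215.

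MARS1 and QARS1 had the largest positive differences in A431 and did not pass. MARS1 had 8.17, 8.22 and 8.26 in A431 with everolimus, against 8.13, 8.02 and 7.99 with DMSO, a log2 difference of 0.17 ± 0.05 (limma adjusted p = 0.0625, from 0.0127 to 0.205 over the alternatives). QARS1 had 8.56, 8.61 and 8.53 with everolimus, against 8.45, 8.38 and 8.41 with DMSO, a log2 difference of 0.15 ± 0.05 (limma adjusted p = 0.0881). The everolimus arrays lay above the DMSO arrays for these genes, 2 of 17 against 11% of all tested genes, and below them for AARS1 and SARS1, again 2 of 17 against 13.5%. AARS1 had a log2 difference of -0.12 ± 0.04 (limma adjusted p = 0.107) and NARS1 -0.14 ± 0.07. The other 12 genes lay between -0.07 (RARS1) and 0.07 (GARS1). For HARS1 and VARS1, the largest falls in HSC-1, the 95% intervals in A431 ran from -0.22 to 0.16 and from -0.15 to 0.16.

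No synthetase gene passed as lower in both lines (limma), where 1.28% of all tested genes did. At an unadjusted p under 0.05 in each line, 3 genes were lower in both, AARS1, NARS1 and SARS1, against 3.42% of all tested genes. In the other direction 1 was higher in both, QARS1, against 2.29%.

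**Figure D2:**
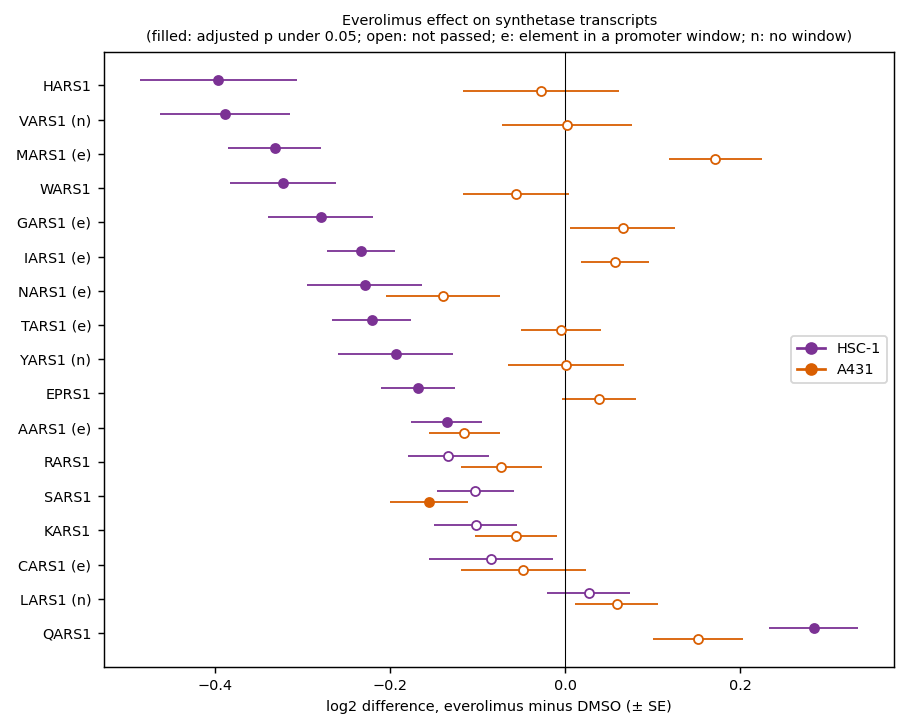
Log2 difference between everolimus and DMSO (horizontal axis, ± SE from limma) for the 17 synthetase genes in HSC-1 and A431; filled points passed the adjusted p of 0.05, e marks the genes with the element in a promoter window and n those without a window. In HSC-1 11 filled points lie below 0 and QARS1 above, and in A431 SARS1 is the 1 filled point.

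The everolimus effect itself was tested between the lines, as the HSC-1 difference minus the A431 difference. Of the 17 genes, 6 had a lower effect in HSC-1, 0 a higher one and 11 did not pass (limma), against 5.69% lower and 4.84% higher of all tested genes (10.5% in all). At an unadjusted p under 0.05 there were 8 lower and 0 higher, against 12.7% and 10.7% of all tested genes. MARS1 differed most, with an everolimus effect of -0.33 in HSC-1 and 0.17 in A431, a difference of -0.50 ± 0.08 (limma adjusted p = 0.000247). VARS1 had -0.39 in HSC-1 and 0.0019 in A431, a difference of -0.39 ± 0.11 (limma adjusted p = 0.0216). GARS1 had -0.28 in HSC-1 and 0.07 in A431 (difference -0.35 ± 0.08, limma adjusted p = 0.0126), and IARS1 -0.23 in HSC-1 and 0.06 in A431 (difference -0.29 ± 0.05, limma adjusted p = 0.00192).

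The HSC-1 arrays of these genes are given above, and in A431 the treatments overlapped for VARS1, GARS1, IARS1, TARS1 and EPRS1. VARS1 had 6.51, 6.45 and 6.49 in A431 with everolimus, against 6.46, 6.38 and 6.61 with DMSO. GARS1 had 9.39, 9.36 and 9.39 with everolimus, against 9.42, 9.25 and 9.27 with DMSO, and only its first DMSO array was above the everolimus arrays. IARS1 had 9.62, 9.68 and 9.76 with everolimus, against 9.62, 9.66 and 9.6 with DMSO. TARS1 had 9.51, 9.34 and 9.5 with everolimus, against 9.39, 9.52 and 9.45 with DMSO, with no order between the treatments. EPRS1 had 9.54, 9.5 and 9.54 with everolimus, against 9.55, 9.47 and 9.45 with DMSO.

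TARS1 and EPRS1 also passed, near the threshold. TARS1 had a difference of -0.22 ± 0.06 (limma adjusted p = 0.037) and EPRS1 of -0.21 ± 0.06 (limma adjusted p = 0.032). Of 21 alternatives, 11 lost the TARS1 call, in a range from 0.00718 to 0.162, and 10 lost that of EPRS1, in a range from 0.019 to 0.145. The array whose absence gave the highest adjusted p was A431 everolimus replicate 1 for TARS1 (0.102) and HSC-1 DMSO replicate 3 for EPRS1 (0.0922). For TARS1 the call was also lost without A431 DMSO replicates 1 (0.0988) and 3 (0.071), A431 everolimus replicate 3 (0.0708), HSC-1 DMSO replicates 1 (0.0837) and 3 (0.088), and HSC-1 everolimus replicates 2 (0.0802) and 3 (0.0566). For EPRS1 it was also lost without A431 DMSO replicates 2 (0.0753) and 3 (0.08), A431 everolimus replicates 1 (0.071) and 3 (0.0511), HSC-1 DMSO replicate 2 (0.0692) and HSC-1 everolimus replicate 3 (0.0588). The VARS1 call was lost without A431 DMSO replicate 2 (0.0629), HSC-1 DMSO replicate 1 (0.0616) and HSC-1 everolimus replicate 2 (0.063), with 0.0061 as its lowest adjusted p, and that of GARS1 without the intensity trend (0.0747, from 0.00193). WARS1 (-0.27 ± 0.09, limma adjusted p = 0.0549) and HARS1 (-0.37 ± 0.13, limma adjusted p = 0.0715) did not pass. QARS1, higher in both lines by sign, had a difference of 0.13 ± 0.07 with a 95% interval from -0.02 to 0.28.

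Between the lines in DMSO the synthetase transcripts differed in both directions, by up to 4.05-fold. In DMSO, 7 of the 17 were lower in HSC-1 than in A431 and 4 higher, with 6 not passing (limma). Of all tested genes 59.4% passed, 30.2% as lower and 29.2% as higher, so the share of synthetases that differed, 11 of 17, was near that of all genes. The arrays of the lines did not overlap for 8 genes lower in HSC-1 and 4 higher, against 32.9% and 32.3% of all tested genes.

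WARS1 had levels of 6.05, 5.99 and 6.06 in HSC-1 with DMSO, against 8.10, 8.04 and 8.02 in A431 with DMSO. It was 4.05-fold lower in HSC-1, with a log2 difference of -2.02 ± 0.06 (limma adjusted p = 1.7e-15), and -1.33 with the mean of its probe sets, since its dim second probe set differed by -0.64 ± 0.19. NARS1 had 9.03, 8.97 and 8.96 in HSC-1, against 10.50, 10.33 and 10.34 in A431, and was 2.65-fold lower (-1.41 ± 0.07, limma adjusted p = 9.1e-13). TARS1 ran the other way, with 10.82, 10.76 and 10.84 in HSC-1, against 9.39, 9.52 and 9.45 in A431, and was 2.56-fold higher (1.35 ± 0.05, limma adjusted p = 8.8e-15). Each of these gaps exceeded the spread within either group many times over.

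AARS1 had 9.21, 9.25 and 9.12 in HSC-1, against 10.18, 10.09 and 10.14 in A431, and was 1.93-fold lower (-0.95 ± 0.04, limma adjusted p = 3.2e-13). CARS1 had 6.58, 6.6 and 6.71 in HSC-1, against 7.47, 7.54 and 7.43 in A431, 1.80-fold lower (-0.85 ± 0.07, limma adjusted p = 5.0e-09). In both genes every HSC-1 array was below every A431 array. IARS1, with 10.19, 10.21 and 10.22 in HSC-1, against 9.62, 9.66 and 9.6 in A431, was 1.5-fold higher in HSC-1 (0.58 ± 0.04, limma adjusted p = 1.8e-10). YARS1 (-0.47 ± 0.07), QARS1 (-0.36 ± 0.05) and GARS1 (-0.21 ± 0.06) were also lower in HSC-1, and VARS1 (0.43 ± 0.07) and EPRS1 (0.29 ± 0.04) higher. HARS1 (0.13 ± 0.09), LARS1 (-0.05 ± 0.05), MARS1 (-0.03 ± 0.05), RARS1 (-0.02 ± 0.05), SARS1 (0.01 ± 0.04) and KARS1 (0.03 ± 0.05) did not pass, and for SARS1 the 95% interval ran from -0.08 to 0.11. The 11 calls were kept under all 22 alternatives. This comparison and the everolimus comparisons share the DMSO arrays, so their values are set side by side only: MARS1 and HARS1, which did not pass between the lines in DMSO, differed by -0.33 and -0.40 with everolimus in HSC-1, and WARS1, the most different between the lines, by -0.32.

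**Figure D3:**
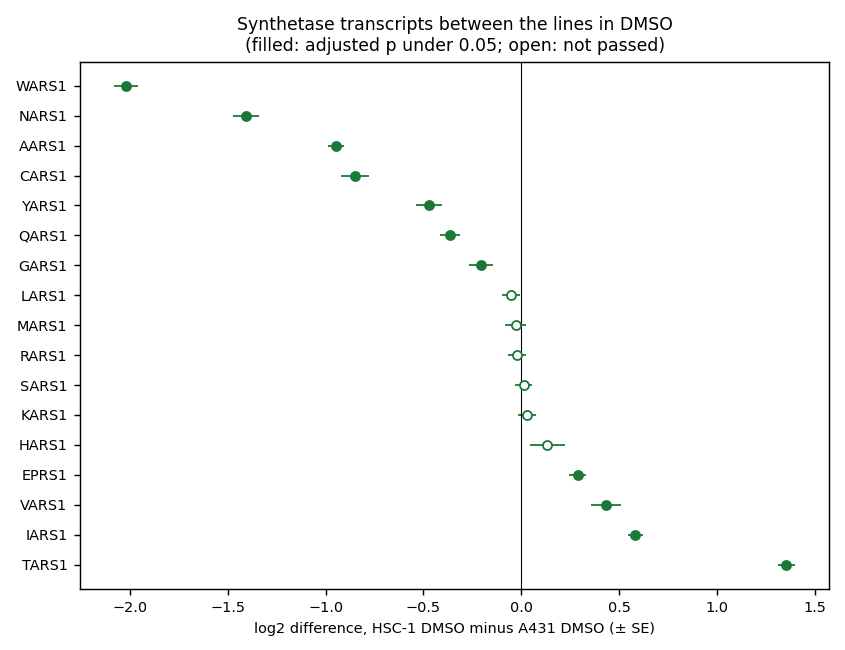
Log2 difference between HSC-1 and A431 in DMSO (horizontal axis, ± SE from limma) for the 17 synthetase genes; filled points passed the adjusted p of 0.05. WARS1 at -2.02 and TARS1 at 1.35 are the extremes, and 6 open points lie between -0.05 and 0.13.

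The genes were also grouped by what is known of them. The HSC-1 counts stand beside 11.3% lower and 7.34% higher of all tested genes, whose median was -0.02. Of the 7 measured members of the multi-synthetase complex, 3 fell in HSC-1 with everolimus (MARS1, IARS1 and EPRS1), 1 rose (QARS1) and KARS1, LARS1 and RARS1 did not pass. Their median log2 difference was -0.13. Of the 10 enzymes outside the complex 8 fell and 0 rose, and their median was -0.23. AIMP1, a scaffold of the complex, had a log2 difference of -0.02 ± 0.04 in HSC-1 and -0.02 ± 0.04 in A431. Of the 12 genes described as ATF4 targets, 9 fell in HSC-1 and 0 rose (not passed: CARS1, LARS1 and SARS1), and their median was -0.21. Of the 5 others HARS1 and VARS1 fell and QARS1 rose, and the median was -0.13. Among the 7 genes with the promoter element 6 fell, all but CARS1, and the median was -0.23. Among the 7 with a window and no element EPRS1, HARS1 and WARS1 fell and QARS1 rose, and the median was -0.13. In A431 the medians of these last groups were -0.0049 and -0.06. No difference between such groups was tested, since the genes were chosen with results known.

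The wider pathway was described from lists of related genes, and the counts stand beside the shares of all tested genes, 11.3% lower and 7.34% higher in HSC-1 and 4.33% lower and 2.39% higher in A431. In HSC-1, 5 of 11 tested amino acid synthesis enzymes fell and 0 rose with everolimus, and their median was -0.14. In A431 2 of the 11 fell and 0 rose, and their median was -0.02. PSAT1, of serine synthesis, fell by 0.77 ± 0.04 in HSC-1 (limma adjusted p = 1.1e-09) and had a log2 difference of 0.05 ± 0.04 in A431. CTH, which makes cysteine from cystathionine, fell in both lines, by 0.43 ± 0.10 in HSC-1 (limma adjusted p = 0.00363) and by 0.38 ± 0.10 in A431 (limma adjusted p = 0.019). ASNS, the asparagine synthetase, fell by 0.43 ± 0.05 in HSC-1 (limma adjusted p = 1.3e-05) and had 0.05 ± 0.05 in A431. SHMT2, which passes serine carbon into mitochondrial folate, fell by 0.36 ± 0.08 in HSC-1 and had 0.10 ± 0.08 in A431. GLUL, the glutamine synthetase, fell by 0.27 in A431 (limma adjusted p = 0.039) and had -0.02 in HSC-1. The A431 call of CTH was lost without A431 everolimus replicate 1 (0.086) or 2 (0.077) or A431 DMSO replicate 2 (0.114), in a range from 0.00879, and that of GLUL without any 1 of the 6 A431 arrays, with adjusted p-values from 0.0154 to 0.154 over the alternatives.

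Of 13 tested genes of the integrated stress response and ATF4 pathway, 3 fell in HSC-1 and 0 rose, against 11.3% and 7.34% of all tested genes. The 3 were DDIT4 (-0.38 ± 0.04), EIF4EBP1 (-0.37 ± 0.07), which encodes the translation repressor 4E-BP1, and the pseudokinase gene TRIB3 (-0.35 ± 0.07, limma adjusted p = 0.00107). In A431 2 of the 13 fell and 0 rose, against 4.33% and 2.39%. They were DDIT4, an inhibitor of mTOR complex 1 (-0.57 ± 0.04), and EIF2AK3, the stress kinase PERK (-0.36 ± 0.08, limma adjusted p = 0.0138). The EIF2AK3 call was lost without A431 everolimus replicate 1 (0.0687) or 2 (0.0635) or A431 DMSO replicate 1 (0.0593), in a range from 0.00274. The transcript of ATF4 itself had a log2 difference of 0.0070 ± 0.06 in HSC-1 and 0.01 ± 0.06 in A431, and DDIT3, another stress factor, -0.01 ± 0.16 in HSC-1 and -0.14 ± 0.16 in A431. The arrays measure the ATF4 transcript and not its translation.

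Of 15 tested tRNA processing and export factors, 2 fell in HSC-1 and 0 rose, and of 36 tested tRNA modification enzymes 5 fell and 1 rose. The counts of falls were near the 11.3% of all tested genes. Most differences in HSC-1 were still negative, 12 of the 15 and 32 of the 36, against 55.1% of all tested genes. Their medians were -0.12 and -0.10, and that of all tested genes -0.02. In A431 0 of the 15 fell and 1 rose, and 0 of the 36 passed in either direction (limma, with 0 lower and 1 higher at an unadjusted p under 0.05). Of all tested genes 4.33% fell and 2.39% rose there, and 11.1% and 8.08% did at the unadjusted p. The processing factors that fell were RPP14, of RNase P (-0.31 ± 0.10, limma adjusted p = 0.0433), and the tRNA 3' end nuclease ELAC2 (-0.28 ± 0.05, limma adjusted p = 0.00082), and TSEN15, of the tRNA splicing endonuclease, rose by 0.22 ± 0.06 in A431 (limma adjusted p = 0.0347). The modification enzymes with the largest falls were the pseudouridine synthase PUS1 (-0.32 ± 0.09, limma adjusted p = 0.014), the guanosine methyltransferase METTL1 (-0.32 ± 0.11, limma adjusted p = 0.0456) and TRMT6, a subunit of an adenosine methyltransferase (-0.30 ± 0.06, limma adjusted p = 0.00189). On the mitochondrial side, MRRF, the mitochondrial ribosome recycling factor, rose by 0.31 ± 0.07 in HSC-1 (limma adjusted p = 0.00333), the 1 of 7 tested translation factors that passed. QRSL1, of the mitochondrial glutaminyl amidotransferase, fell by 0.19 ± 0.06 in HSC-1 (limma adjusted p = 0.035), the 1 of 3 tested genes of its list that passed. These single calls from short lists stand beside 7.34% higher and 11.3% lower of all tested genes in HSC-1.

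Single arrays decided several of these calls. The adjusted p of PUS1 was 0.057 without HSC-1 everolimus replicate 1 and 0.0673 without HSC-1 DMSO replicate 2. The highest over the alternatives was 0.193 for METTL1 without HSC-1 everolimus replicate 2, 0.235 for RPP14 and 0.134 for QRSL1 without HSC-1 DMSO replicate 3, and 0.115 for TSEN15 without A431 DMSO replicate 1. The calls of METTL1, RPP14 and TSEN15 were each lost in 6 fits that left out an array and that of QRSL1 in 5. The HSC-1 calls of PSPH, TRMT1 and CDK1 and the A431 call of MKI67 were also lost in at least 1 such fit. For the HSC-1 calls of CTU2, ELP2, MCM2 and PCNA the values under the alternatives were not recorded.

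Among 10 proliferation genes 9 fell and 0 rose in HSC-1, with a median of -0.25, against 11.3% and 7.34% of all tested genes. In A431 0 fell and 1 rose, MKI67 (0.16 ± 0.04, limma adjusted p = 0.00968). Its call was lost without A431 DMSO replicate 2 (0.0548). The largest falls in HSC-1 were those of the mitotic kinase PLK1 (-0.51 ± 0.04) and the cyclins CCNB1 (-0.45 ± 0.06) and CCNA2 (-0.45 ± 0.04). Proliferation genes and synthetases fell in the same line, and the part of the proliferation genes in the synthetase result was not tested.

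**Figure D4:**
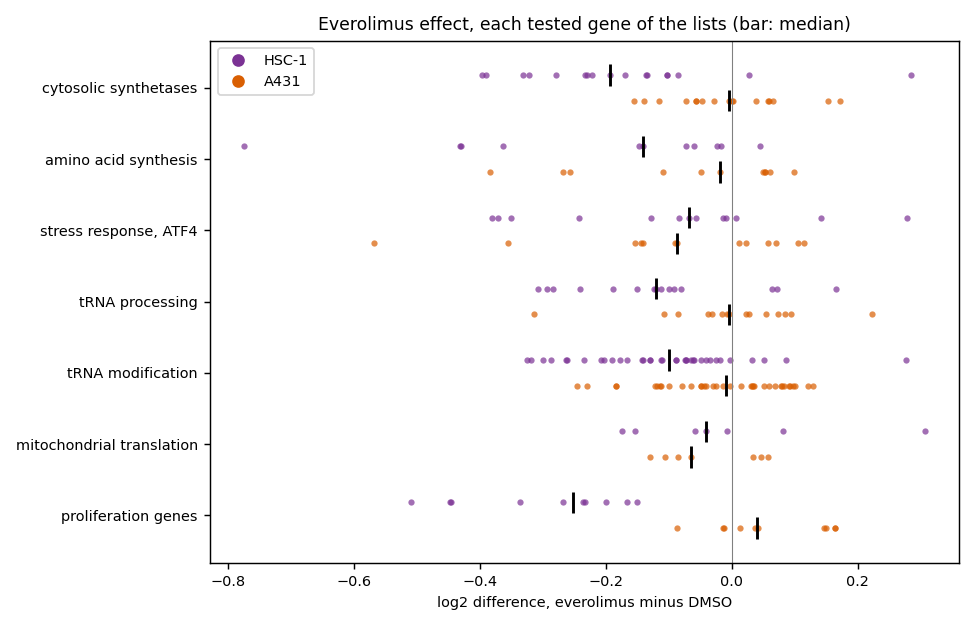
Log2 difference between everolimus and DMSO (horizontal axis) for each tested gene of 7 lists, in HSC-1 and A431; black bars are medians. The synthetases have medians of -0.19 in HSC-1 and -0.0049 in A431, and the proliferation genes -0.25 in HSC-1 and 0.04 in A431.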

How the data were processed

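Per the labels, total RNA of the 12 samples was labelled with biotin by a whole-transcript protocol and hybridised to Affymetrix arrays. The authors deposited log2 levels of probe sets, for which the submitters' processing notes name RMA and Affymetrix Expression Console. Because RMA brings arrays to one distribution, a shift of the RNA content of cells is hidden. Of 53617 probe sets, 16098 carry 1 gene symbol and 37519 are unnamed here. Their Entrez identifiers all had an entry in the RefSeq table of GRCh38.p14, from which current symbols were taken. There were 0 sample columns left unused.

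A gene was represented by its brightest probe set on average, and genes with at least 3 arrays above their array's median over all probe sets were tested (10613 of 14884). Group means were fitted with lmFit and eBayes with an intensity trend (limma 3.58.1, R 4.3.3), 8 residual degrees of freedom and a Benjamini-Hochberg adjusted threshold of 0.05. Errors of differences are moderated SE, with a precision limited by the number of arrays. The procedure was also run on simulated data, of which no result is given here, so it lends no weight to the calls. The genes, lists and comparisons were chosen with earlier results of these data known, and the list of ATF4 targets comes from general knowledge. The genes shown on every array include, for each comparison, up to 6 members with the largest change past the threshold, and lists contribute up to 3 such genes per comparison, of which list values between the lines in DMSO are not printed. Alternatives were a replicate block, no or a stricter level filter, other variance priors, array weights, quantile normalization again, median centring, a fit restricted to a comparison's own 6 arrays, averaging probe sets per gene, and omitting single arrays.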

Additional observations from a re-analysis of the deposited data

Results flagged for a closer look

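The everolimus effect differed between HSC-1 and A431 for 6 synthetase genes by the test of the difference itself (limma, adjusted over all tested genes). The difference between these effects, HSC-1 less A431, was -0.50 for MARS1, -0.39 for VARS1, -0.35 for GARS1, -0.29 for IARS1, -0.22 for TARS1 and -0.21 for EPRS1 on the log2 scale. Of these, MARS1 and IARS1 kept their call under all 21 alternatives. With 3 arrays a group, no test for outlying arrays was made, but each array was left out in turn. Leaving out single arrays lost the calls of TARS1, EPRS1 and VARS1. The GARS1 call was lost only without the intensity trend.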

How the results depend on the processing

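Leaving out each array in turn gave 452 to 838 genes called in A431 (714 with all arrays, 452 and 453 when A431 DMSO replicate 1 or 2 was left out), 1405 to 2032 in HSC-1 (1977), 878 to 1161 for the difference between the lines (1118) and 5909 to 6359 between the lines in DMSO (6303). Synthetases called numbered 0 to 2 in A431 (1), 9 to 12 in HSC-1 (12), 4 to 7 for the difference (6) and 11 to 12 in DMSO (11). Without the intensity trend 438 genes were called in A431, with 0 synthetases there, 8 in HSC-1 (7 lower, against 11 lower with the trend) and 3 for the difference between the lines. The A431 synthetase count was also 0 with a replicate block, without the level filter and in the fit of the 6 arrays, and 2 (1 lower, 1 higher) with quantile normalization applied again. Over the 17 genes, 12 of 374 alternative values in A431 lost a call and 3 gained one, 27 and 4 of 374 in HSC-1, 25 and 7 of 357 for the difference, and 0 and 1 of 374 in DMSO, and 0 called values changed sign. Same-numbered arrays had deviations from their group means that correlated at -0.15 to 0.07, so no pairing by number was seen. That does not exclude that same-numbered arrays were handled together. With the number as a replicate block, 621 genes were called in A431, 1845 in HSC-1, 1005 for the difference and 6212 in DMSO, and 0, 11, 4 and 11 synthetases. The block lost the calls of SARS1 in A431, YARS1 in HSC-1 and EPRS1 and TARS1 for the difference. The fit of 6 arrays was not applied to the difference, and alternatives for mitochondrial synthetases were not run, since 0 had a named probe set. Scaling moved the median of all genes by under 0.1. The number of arrays limits how small a difference can be called.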

Other observations

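The synthetases fall into 2 structural classes with unrelated catalytic folds. EPRS1 joins an enzyme of each class and was counted in class I. This grouping was added after the values were seen. In HSC-1 with everolimus, 6 of the 10 class I genes fell and 1 rose, and 5 of the 7 class II genes fell and 0 rose. Of all tested genes 11.3% fell and 7.34% rose there. The median log2 differences were -0.18 in class I and -0.22 in class II. In A431 the medians were 0.02 for class I and -0.06 for class II. A negative difference was seen there in 6 of the 7 class II genes and 3 of the 10 class I genes. Of all tested genes 51% were negative in A431. SARS1, of class II, was the 1 gene that passed, and no difference between the classes was tested.

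The promoter element was also found in 1 of 7 amino acid synthesis genes with a window, ASNS, and in 1 of 11 genes of the stress response list, ATF3. It was in 1 of 29 tRNA modification genes, in 0 of 13 tRNA processing genes and in 0 of 9 proliferation genes. These counts stand beside 2.52% of tested genes with a window and 4.46% of all genes with a window.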
